A study of Mus musculus with 51 samples.

Results

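The genes described here encode the subunits of the mitochondrial respiratory chain and of ATP synthase, with the assembly factors whose symbols carry the same stems. They were taken as every gene whose symbol begins with Ndufa, Ndufb, Ndufc, Ndufs, Ndufv, Sdha, Sdhb, Sdhc, Sdhd, Uqcr, Cox4, Cox5, Cox6, Cox7, Cox8 or Atp5 and that has a probe set assigned to that symbol alone. This gave 94 of 18192 genes on the array, each read from its brightest probe set (by the mean of the log2 values). Of these, 93 passed the filter on low values: 34 of complex I, 4 of complex II, 8 of complex III, 18 of complex IV, 17 of ATP synthase (complex V) and 12 assembly factors (Ndufaf and Sdhaf genes). The gene that did not pass is Cox6b2, a testis isoform. The rule used symbols and mean intensity and no difference between groups.

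RNA was measured on Affymetrix mouse whole genome arrays. The mice carry Wap-Cre and a conditional Etv6-NTRK3 knock-in allele, which once recombined makes a fusion kinase. The Wap promoter, which drives Cre, belongs to a milk protein gene and is active in secretory mammary epithelium. A floxed lacZ reporter at Rosa26 marks the recombined cells. The lacZ+ cells were sorted from hyperplastic glands (sorted hyperplasia, 4 arrays of 4 mice), from primary tumors (sorted primary tumor, 8 arrays of 6 mice) and from tumors passaged in RAG2-/- recipients (sorted transplanted tumor, 7 arrays at passages 1 to 4, 5 mice of origin). Unsorted tissue was taken from primary tumors (23 arrays giving 22 replicates, 14 mice), from tumors grown in RAG2-/- recipients (unsorted transplanted tumor, 4 arrays, 2 mice of origin) and from glands of normal mice (wild-type gland, 5 arrays of 5 mice). RAG2-/- hosts lack mature B and T cells. Several tumors can come from 1 mouse. Age, strain and the reproductive state of the glands are not given in the sources used here.

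Oxidative phosphorylation passes electrons from NADH through complex I, or from succinate through complex II, to ubiquinone, then through complex III and cytochrome c to complex IV, which reduces oxygen. Complexes I, III and IV pump protons, and ATP synthase uses the returning protons to make ATP. Most subunits are encoded in the nucleus, and a few core subunits of complexes I, III, IV and V in mitochondrial DNA. Several complex IV subunits exist as a widely expressed isoform and a second isoform restricted to muscle, lung, testis or low oxygen.

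Many nuclear subunit genes have binding motifs of the transcription factors NRF1, GABPA, YY1, CREB and ERR alpha near their start sites. RefSeq promoters (GRCm38.p6, 250 bases before to 50 after the start) matched 78 of the 94 genes, and 5 motifs were searched in them on both strands. The NRF1 motif GCGCATGC stood in 14.1% of the members' promoters and in 4.68% of the promoters of 14451 genes on the array. The YY1 motif AAGATGGC stood in 12.8% and 4.07%. The GABPA motif CCGGAAGT stood in 6.41% and 6.62%, the CRE motif TGACGTCA in 3.85% and 2.92%, and the ERR alpha motif TCAAGGTCA in 2.56% and 0.401%. NRF1 matches on both strands can overlap, as they do in Atp5g2. The stretches below are the 100 bases before the start site of 6 members that were higher in tumors than in glands, 2 for NRF1 and 1 for each other motif, shown because the members moved together. Capitals mark the motif. A match describes the sequence and is no evidence that the factor binds.
Ndufa6, complex I (NRF1; chr15:82354292-82354391, minus strand): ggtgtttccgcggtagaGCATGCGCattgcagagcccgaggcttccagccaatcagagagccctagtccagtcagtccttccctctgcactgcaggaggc
Atp5g2, ATP synthase (NRF1 on both strands; chr15:102671048-102671147, minus strand): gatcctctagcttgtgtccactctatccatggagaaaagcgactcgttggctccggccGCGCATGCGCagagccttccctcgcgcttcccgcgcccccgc
Uqcr11, complex III (GABPA; chr10:80406822-80406921, minus strand): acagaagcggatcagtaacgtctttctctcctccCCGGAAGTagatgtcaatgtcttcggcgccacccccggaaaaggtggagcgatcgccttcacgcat
Ndufa10, complex I (CRE; chr1:92473759-92473858, minus strand): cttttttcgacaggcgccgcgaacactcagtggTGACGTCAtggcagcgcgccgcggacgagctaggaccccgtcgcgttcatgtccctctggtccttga
Atp5g3, ATP synthase (ERR alpha; chr2:73911327-73911426, minus strand): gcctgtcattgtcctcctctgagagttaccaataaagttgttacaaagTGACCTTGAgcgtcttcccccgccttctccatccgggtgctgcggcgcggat
Atp5j, ATP synthase (YY1; chr16:84834977-84835076, minus strand): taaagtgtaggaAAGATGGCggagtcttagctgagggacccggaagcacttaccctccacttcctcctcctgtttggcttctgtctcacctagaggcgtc

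All values are log2 intensities with a floor of 5 (an intensity of 32), and the number of arrays limits their precision. Array medians of the raw intensity lay between 42.9 and 57.8. Differences are fitted log2 differences ± SE from limma, called at an adjusted p under 0.05 over 15150 genes. Glands 4 and 5 stand apart from the other glands. Their medians over the members were 8.75 and 8.62, against 9.52, 9.45 and 9.49 in glands 1, 2 and 3. The Actb control probe sets gave a 3'/5' ratio, which reflects RNA quality, of 2.18 and 0.83 on these 2 arrays (log2). The other glands had 0.25 to 1.01, so gland 4 lay outside their range and gland 5 inside it. Because of the lower medians of glands 4 and 5, the members' differences from the glands are also given without both. The wild-type glands held all 8 luminal epithelial markers at a list mean of 9.43 to 11.21, and the sorted hyperplasia arrays at 9.66 to 10.87. Fibroblast markers stood at a list mean of 10.49 to 11.22 in the sorted hyperplasia and 10.92 to 11.59 in the glands, and macrophage markers at 10.26 to 11.15 and 8.35 to 9.47, so the sorted hyperplasia arrays carry markers of cells other than epithelium.

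The median of the members on each array gives the overall picture. It lay at 9.66 to 10.32 in the 22 unsorted primary tumors (mean 9.95 ± 0.14, SD) and at 9.66 to 10.06 in the 4 unsorted transplanted tumors (9.88 ± 0.18). It was 9.45 to 9.67 in the 4 sorted hyperplasia arrays (9.56 ± 0.10), 9.18 to 9.84 in the 8 sorted primary tumors (9.62 ± 0.20), 9.37 to 10.11 in the 7 sorted transplanted tumors (9.68 ± 0.25) and 8.62 to 9.52 in the 5 glands (9.17 ± 0.44). Every unsorted tumor lay above every gland, whereas sorted tumors overlapped both glands 1 to 3 and unsorted tumors. The median of all tested genes stayed within 6.74 to 7.10 on every array.

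**Figure D1:**
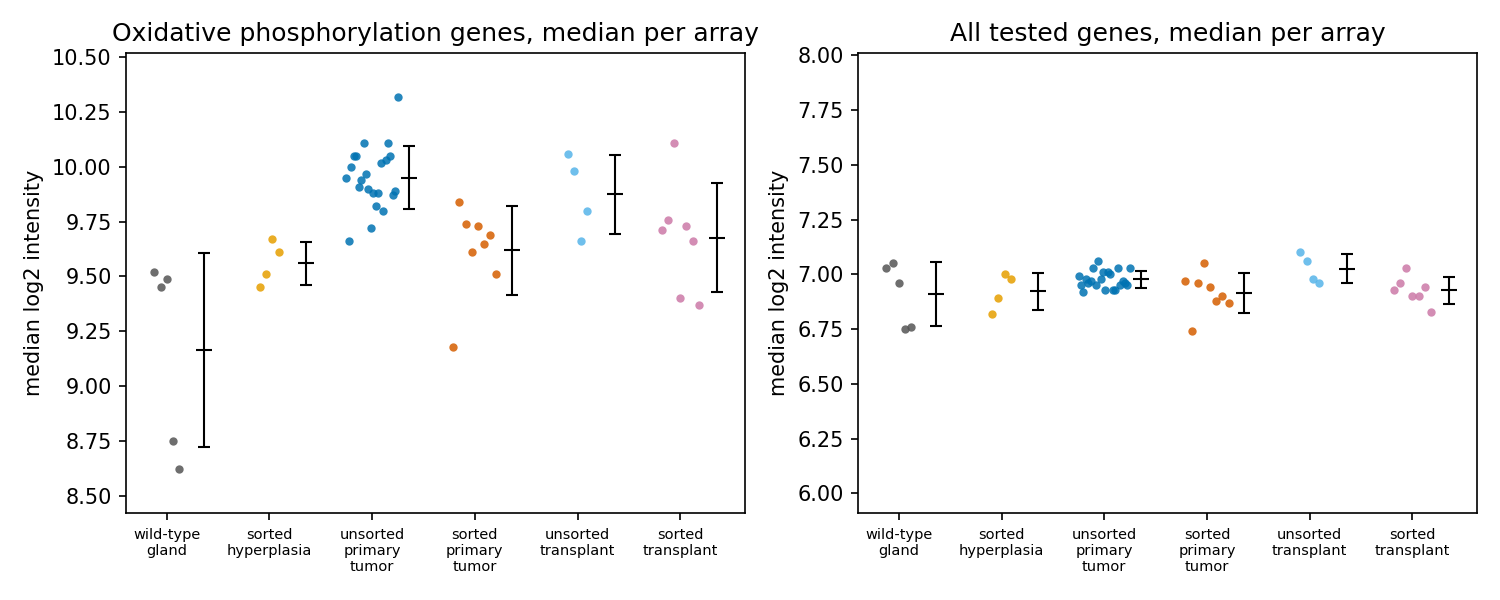
Median log2 intensity of the oxidative phosphorylation genes (left) and of all tested genes (right) on each array, by group, on axes of equal span; points are arrays, or the mean of 2 arrays of 1 tumor, and bars are the group mean ± SD. The unsorted tumors lie above all glands on the left (9.66 or more against 9.52 or less), and glands 4 and 5 lie below the rest at 8.75 and 8.62.

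The first comparison set unsorted primary tumors against wild-type glands. Of the 93 tested members 73 rose and 4 fell in the tumors, where 29.4% of all genes rose and 21.5% fell. The members' median difference was 0.81, against 0.10 over all genes. All 17 ATP synthase genes rose (median 0.94), as did 7 of 8 complex III genes (median 1.03), 30 of 34 complex I genes (0.81), 10 of 18 complex IV genes (0.59), 2 of 4 complex II genes (0.45) and 7 of 12 assembly factors (0.52). The 4 that fell were Ndufa7 of complex I and, in complex IV, Cox4i2, Ndufa4l2 and Cox6a2. In 27 members every tumor lay above every gland and in 2 (Ndufa7 and Cox4i2) every tumor lay below every gland, against 6.7% and 7.56% of all genes. Without glands 4 and 5, 52 of the 73 remained called as higher, where 16.7% of all genes were, and the members' median difference was 0.45 against 0.04. By group these were 18 complex I, 1 complex II, 5 complex III, 7 complex IV and 15 ATP synthase genes and 6 assembly factors. In 68 of the 73 both glands 4 and 5 lay below glands 1 to 3, and the same count over all genes was not made. The median of all tested genes was 6.75 and 6.76 in glands 4 and 5, against 7.03, 7.05 and 6.96 in glands 1, 2 and 3.

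**Figure D2:**
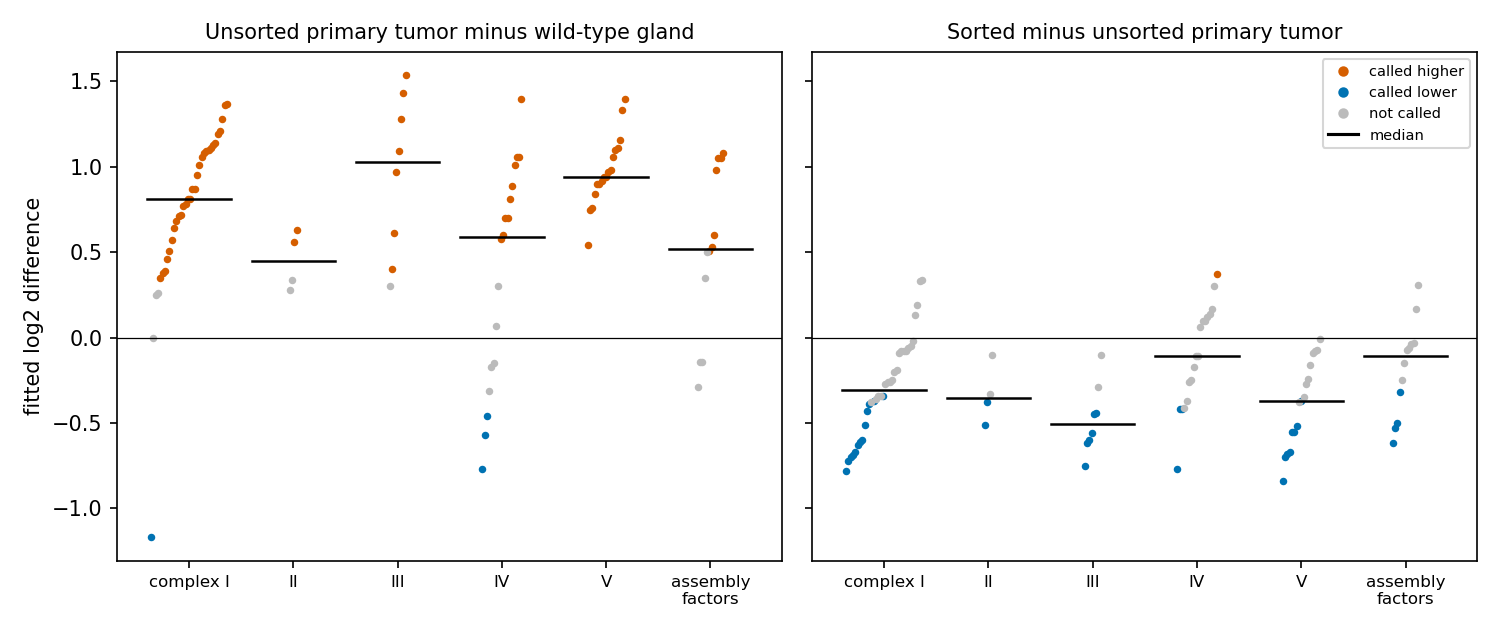
Fitted log2 difference of each tested member, by complex, for unsorted primary tumor minus wild-type gland (left) and sorted minus unsorted primary tumor (right); orange points were called higher, blue points lower, grey points not called, and the line is the median of the complex. On the left nearly all subunits lie above 0, with medians from 0.45 (complex II) to 1.03 (complex III), and on the right the medians run from -0.51 (complex III) to -0.11 (complex IV and assembly factors).

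Complex I takes electrons from NADH. Its core subunit Ndufs7, an iron-sulfur protein near the ubiquinone site, had 8.56, 8.79, 8.53, 7.48 and 6.93 in glands 1 to 5, and 8.64 to 10.10 with a median of 9.41 in the tumors. The lowest tumor lay below gland 2 and above the other glands, and Ndufs7 rose by 1.37 ± 0.20 (2.59-fold, limma adjusted p = 1.38e-07), or by 0.81 ± 0.20 without glands 4 and 5. Ndufa6, an accessory subunit, had 8.80, 8.68, 8.31, 8.50 and 8.27 in the glands and 9.41 to 10.35 in the tumors (median 9.80). The groups did not overlap, and the rise of 1.36 ± 0.20 (2.56-fold, limma adjusted p = 1.93e-07) stood at 1.27 ± 0.25 without glands 4 and 5. Ndufb9, an accessory subunit of the membrane arm, was at 9.81, 9.77, 9.58, 9.05 and 8.93 in the glands and at 10.19 to 11.19 in the tumors (median 10.66), again without overlap, and rose by 1.28 ± 0.19, or by 0.99 ± 0.22 without those glands. The largest core subunit, Ndufs1, rose less: 8.04, 8.28, 8.10, 7.96 and 7.73 in the glands against 8.10 to 9.28 in the tumors (median 8.67), a difference of 0.71 ± 0.17, or 0.59 ± 0.21 without glands 4 and 5. The NADH-binding subunit Ndufv1 rose by 0.38 ± 0.13 (adjusted p = 0.0115) and was not called without glands 4 and 5 (0.19, adjusted p = 0.364). Of the other complex I genes, Ndufa12 (0.26, adjusted p = 0.129), Ndufs4 (0.25, adjusted p = 0.262) and Ndufb4 (0.00) did not pass, and Ndufa10, whose promoter holds the CRE match, rose by 1.09 ± 0.18, or by 0.69 ± 0.20 without those glands. The Ndufb4 probe set is dim, at 5.00 to 5.63 in the glands and 5.00 to 5.49 in the tumors.

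Ndufa7, an accessory complex I subunit, is the one gene of that complex called lower, and its probe sets disagree. The chosen probe set had 11.98, 11.98, 11.99, 11.71 and 11.84 in the glands and 10.44 to 11.13 in the unsorted primary tumors, a difference of -1.17 ± 0.22 (limma adjusted p = 1.81e-05), or -1.25 ± 0.27 without glands 4 and 5. This probe set and 1 other of Ndufa7 were higher on 15 arrays that stand next to each other in the deposited table (11.30 to 11.99 for the chosen one) than on the other 36 (10.01 to 11.14). The 15 arrays are those of all 5 glands, of hyperplasia replicates 2 and 3, and of replicates 1 to 4 of the sorted primary and of the sorted transplanted tumors, with no unsorted tumor. The 3 other Ndufa7 probe sets overlapped between the 15 and the 36 arrays and had higher means in tumors than in glands. Ndufa7 was the only member split over all arrays in this way, among 56 of 15150 genes higher on all of the 15 arrays and 1 lower. Within the sorted primary tumors, 6 of 93 members were higher on all 4 arrays inside the stretch than on all 4 outside it (Ndufa7, Ndufb7, Ndufv3, Cox4i2, Ndufa4l2 and Ndufaf8). Another 4 were lower (Ndufa9, Atp5g1, Atp5j2 and Atp5pb). How many of all genes split in this way was not counted, so these counts are no result about the members. The arrays inside were told by the chosen Ndufa7 probe set, so its own split was fixed in advance. What sets these arrays apart is not given in the labels, and its part in the Ndufa7 difference was not tested. For tumors against glands, place in the table and group cannot be told apart. In the sorted primary tumors, the median over all members was 9.18, 9.84, 9.74 and 9.61 on the 4 arrays inside the stretch and 9.73, 9.65, 9.69 and 9.51 on the 4 outside it.

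**Figure D3:**
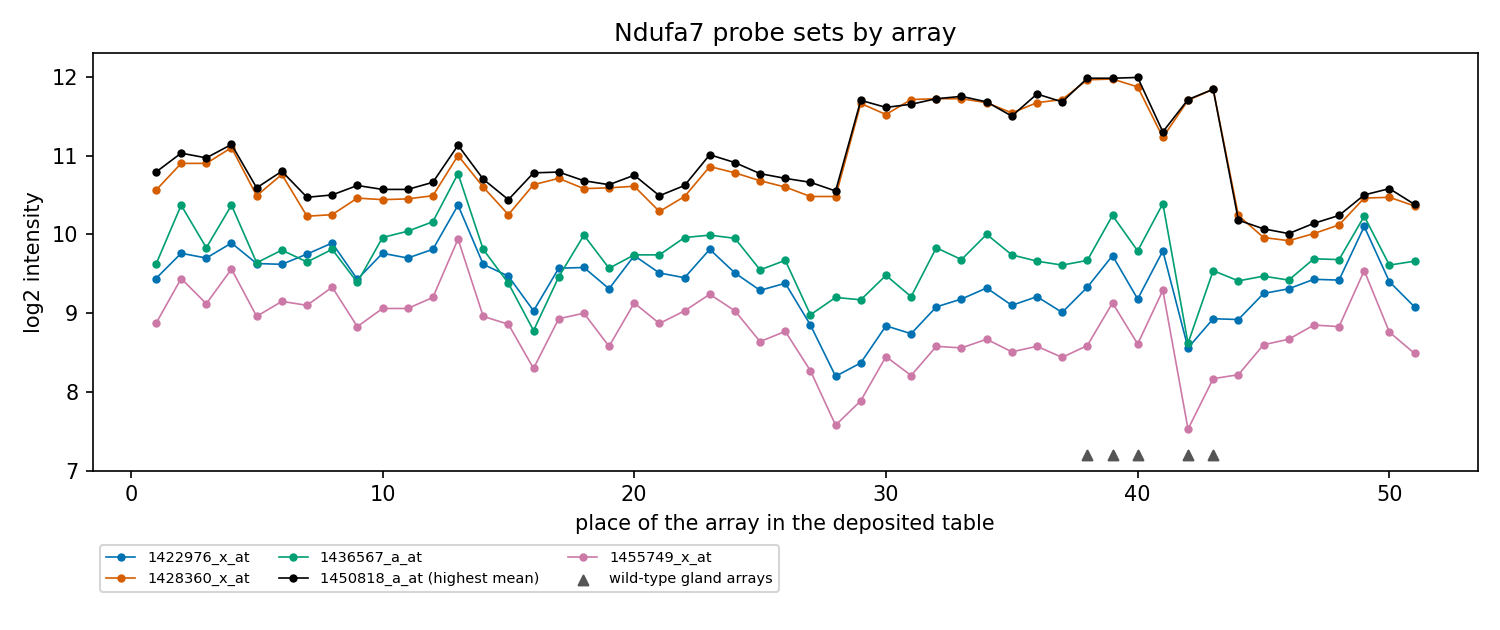
Log2 intensity of the 5 Ndufa7 probe sets on the 51 arrays in the order of the deposited table; triangles mark the wild-type gland arrays. The upper pair steps up together on 15 neighbouring arrays (11.30 or more for the probe set with the highest mean), which the lower 3 do not.

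Complex II oxidises succinate and has 4 subunits, all nuclear. Its membrane anchors rose in the tumors. Sdhd had 9.02, 9.23, 9.07, 8.63 and 8.99 in the glands against a lowest value of 8.99 and a median of 9.56 in the tumors, a difference of 0.56 ± 0.13 (1.47-fold, limma adjusted p = 0.000413) and of 0.44 ± 0.16 without glands 4 and 5. Sdhc rose by 0.63 ± 0.17 and was not called without those glands (0.32, adjusted p = 0.205). The catalytic pair did not pass: the flavoprotein Sdha differed by 0.34 (adjusted p = 0.055), or -0.02 without glands 4 and 5, and the iron-sulfur protein Sdhb by 0.28 (adjusted p = 0.29).

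Complex III hands electrons to cytochrome c. Uqcrq, a small structural subunit, showed the largest rise of all members: 8.49, 8.80, 8.87, 7.59 and 7.87 in the glands and 9.09 to 10.53 in the tumors (median 9.77). No tumor fell into the range of the glands, and the difference was 1.54 ± 0.18 (2.9-fold, limma adjusted p = 3.37e-09), or 1.14 ± 0.21 without glands 4 and 5. A second Uqcrq probe set had the opposite sign. Uqcr11, the small subunit whose promoter is printed above, had 8.75, 8.84, 8.72, 7.42 and 7.36 against 8.60 to 10.13 (median 9.64) and rose by 1.43 ± 0.20, or by 0.88 ± 0.20 without those glands. The core protein Uqcrc1 rose by 1.28 ± 0.16 (9.47, 9.24, 9.23, 8.91 and 8.46 against 9.71 to 10.96) and the Rieske iron-sulfur protein Uqcrfs1 by 1.09 ± 0.15 (9.79, 9.54, 9.53, 8.94 and 8.99 against 9.90 to 10.83), both with no tumor inside the range of the glands. Without glands 4 and 5 these rises were 1.03 ± 0.18 and 0.83 ± 0.17. Uqcrb, a subunit at the ubiquinone site, was not called (0.30, adjusted p = 0.131).

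In complex IV, most subunits with general expression rose, some of them only with all 5 glands. The 1 restricted isoform called lower both with and without glands 4 and 5 was Cox4i2. Cox7c, read from a dim probe set (mean 6.20), was not called in either case (-0.32 ± 0.25 without glands 4 and 5, limma adjusted p = 0.328). Cox8a, the widely expressed form of a small membrane subunit, had 10.60, 10.66, 10.47, 9.50 and 9.68 in the glands and 11.24 to 12.26 in the tumors (median 11.53). Its groups did not overlap, and it rose by 1.40 ± 0.15 (2.64-fold, limma adjusted p = 2.99e-10), or by 1.00 ± 0.16 without glands 4 and 5. Cox4i1, the general form of a regulatory subunit, was at 11.51, 11.59, 11.34, 10.01 and 10.67 in the glands and 11.61 to 12.32 in the tumors (median 12.09), and rose by 1.06 ± 0.15, or by 0.60 ± 0.14 without glands 4 and 5. Its counterpart Cox4i2, known from lung and low oxygen, went the other way: 7.70, 7.67, 7.76, 8.17 and 8.01 in the glands and 6.49 to 7.49 in the tumors (median 7.09). Every tumor lay below every gland, and Cox4i2 fell by 0.77 on the log2 scale (SE 0.14, 1.7-fold, limma adjusted p = 1.32e-05), with -0.61 ± 0.17 without glands 4 and 5. Cox4i2 also followed the stretch of 15 arrays among the sorted primary tumors, at 7.37 to 7.85 on the 4 arrays inside it and 6.84 to 7.33 on the 4 outside it, and the part of the stretch in its difference from the glands was not tested. Cox5a, Cox5b, Cox6b1 and Cox6c, subunits with general expression, rose by 0.81 ± 0.15, 1.01 ± 0.16, 0.89 ± 0.14 and 1.06 ± 0.17. Without glands 4 and 5 these rises were 0.54 ± 0.17, 0.58 ± 0.16, 0.54 ± 0.15 and 0.60 ± 0.17.

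The other isoform pairs were less firm. Cox6a1, the general isoform, rose by 0.58 ± 0.16 and its muscle counterpart Cox6a2 fell by 0.46 (SE 0.19, adjusted p = 0.042), but neither was called without glands 4 and 5 (0.15, adjusted p = 0.535, and -0.19, adjusted p = 0.547). Cox6a2 stood at 6.65, 6.62, 6.62, 7.81 and 6.77 in the glands, so gland 4 alone lay above all the tumors (5.55 to 6.88). Ndufa4, a complex IV subunit first assigned to complex I, rose by 0.70 ± 0.19, and its paralog Ndufa4l2, a gene induced by low oxygen, fell by 0.57 (SE 0.21, adjusted p = 0.0205). Without those glands Ndufa4 was at 0.26 (adjusted p = 0.367) and Ndufa4l2 at -0.43 (adjusted p = 0.207). Ndufa4l2 was also higher in the sorted primary tumors inside the stretch (6.89, 7.25, 7.01 and 7.23) than outside it (6.81, 6.09, 6.19 and 6.02). Cox7a2 rose by 0.70 ± 0.15 and was not called without them (0.35, adjusted p = 0.0927). The muscle isoforms lay at or near the floor: Cox7a1 (5.00 to 6.10 in the glands, 5.00 to 6.91 in the tumors, difference -0.17, adjusted p = 0.608) and Cox8b (5.00 in all glands, 5.00 to 6.49 in the tumors, difference 0.30, adjusted p = 0.166). Cox6b2 was at 5.00 in every unsorted primary tumor.

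**Figure D4:**
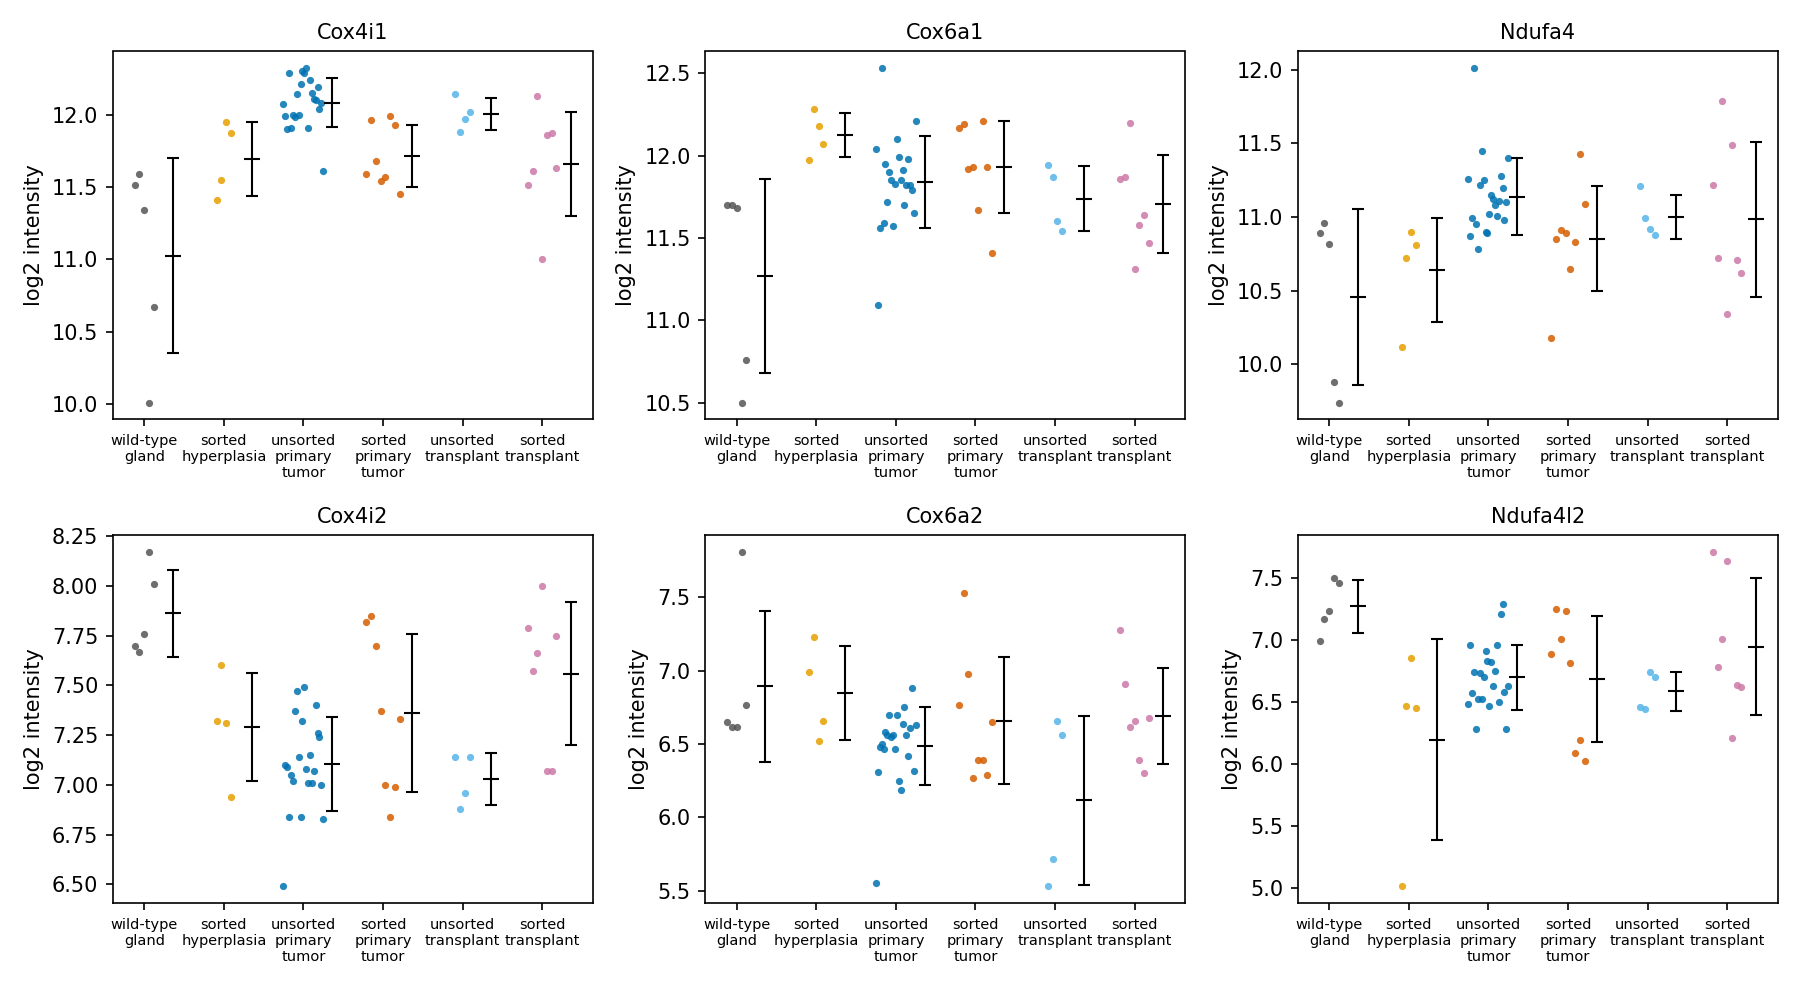
Log2 intensity of the general isoform (top) and the restricted isoform (bottom) of 3 complex IV subunits on each array, by group; bars are the group mean ± SD. Cox4i1 lies higher and Cox4i2 lower in every unsorted primary tumor than in every gland (Cox4i1 at 11.61 or more against 11.59 or less, Cox4i2 at 7.49 or less against 7.67 or more), while the other pairs overlap.

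ATP synthase was the one complex with every tested subunit called. The gamma subunit Atp5c1, which forms the rotating shaft, had 10.09, 9.81, 9.94, 8.98 and 8.76 in the glands and 10.17 to 11.47 in the tumors (median 10.88). The groups did not overlap and the rise was 1.33 ± 0.20 (2.51-fold, limma adjusted p = 2.38e-07), or 0.90 ± 0.22 without glands 4 and 5. The epsilon subunit Atp5e rose by 1.40 ± 0.19 (9.54, 9.55, 9.61, 8.13 and 8.05 against 9.73 to 10.87), or by 0.81 ± 0.18 without those glands. The alpha and beta subunits, which form the catalytic head, rose by 1.11 ± 0.18 (Atp5a1; 11.20, 11.03, 10.98, 10.11 and 10.08 against 11.30 to 12.57) and 0.94 ± 0.18 (Atp5b; 11.17, 11.20, 11.03, 10.16 and 10.48 against 10.99 to 12.10). Without glands 4 and 5 these were 0.72 ± 0.20 and 0.62 ± 0.21. Atp5g1, 1 of 3 genes for the c subunit of the membrane ring, rose by 1.16 ± 0.21, or by 0.85 ± 0.24 without those glands. The other c subunit genes, whose promoters are printed above, rose as well: Atp5g2 by 0.94 ± 0.13 (10.36, 10.29, 10.13, 9.12 and 9.33 in the glands against 10.37 to 11.14) and Atp5g3 by 0.75 ± 0.13 (11.98, 11.88, 11.81, 11.09 and 11.26 against 12.04 to 12.76), in both cases with every tumor above every gland. They rose by 0.53 ± 0.13 and 0.46 ± 0.15 without glands 4 and 5. The smallest rise in the complex was that of Atp5j (0.54). Without glands 4 and 5, Atp5j and Atp5mpl were not called.

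Among the assembly factors, Sdhaf1, which helps to insert iron-sulfur clusters into complex II, rose by 1.08 ± 0.20 (6.03, 6.27, 6.12, 6.32 and 5.90 in the glands against 6.53 to 8.24 in the tumors, without overlap). The complex I factors Ndufaf1 and Ndufaf3 rose by 1.05 ± 0.21 and 1.05 ± 0.15. These 3 rises without glands 4 and 5 were 1.06 ± 0.25, 0.72 ± 0.26 and 0.77 ± 0.17. Ndufaf4 (-0.29, adjusted p = 0.124) and Ndufaf7 (-0.14, adjusted p = 0.3) were not called.

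**Figure D5:**
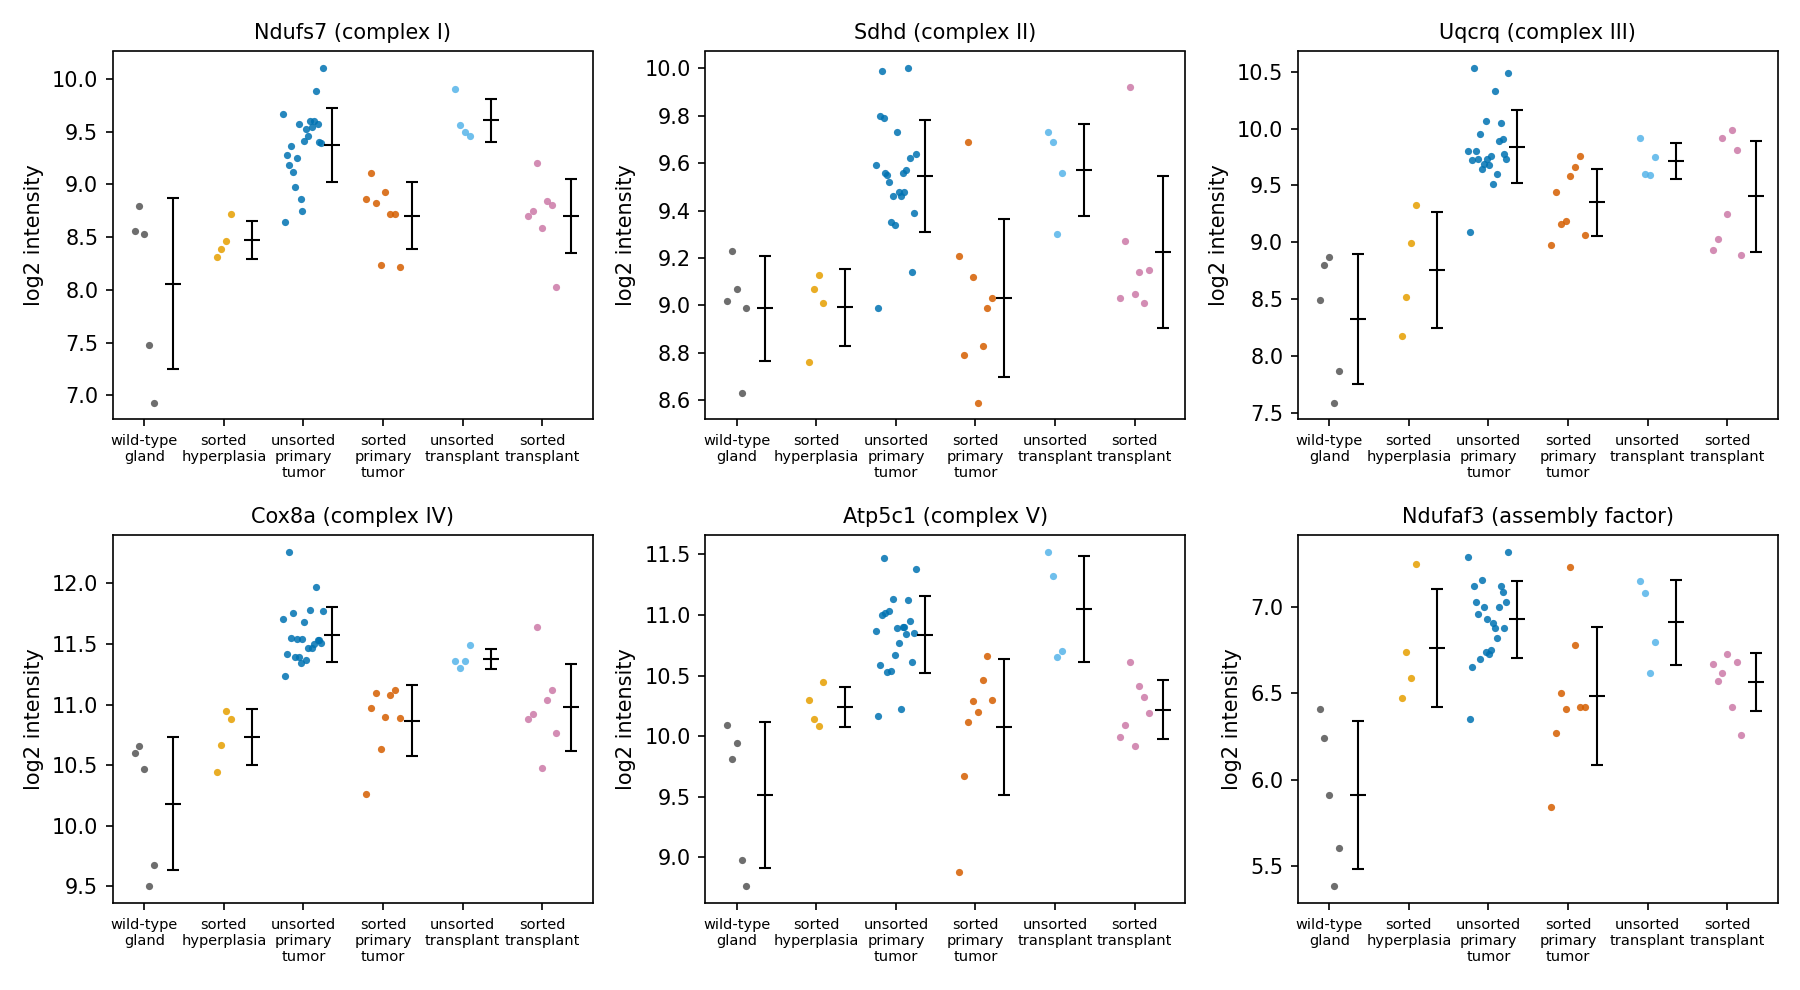
Log2 intensity of 1 member of each complex and of an assembly factor on each array, by group; bars are the group mean ± SD. Uqcrq, Cox8a and Atp5c1 lie higher in every unsorted primary tumor than in every gland (for Cox8a 11.24 or more against 10.66 or less), and the sorted primary tumors overlap glands, unsorted tumors or both (Cox8a at 10.26 to 11.12).

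More than 1 probe set was present for 53 members. Of 58 further probe sets above the median probe set, for 39 called genes, 53 had the sign of the chosen one in tumor against gland. The exceptions belonged to Atp5j2 (1), Ndufa7 (3) and Uqcrq (1). Probe sets ending in _s_at or _x_at can match more than 1 transcript, and 16 of the 73 members that rose were read from such a probe set, Cox8a, Uqcrq, Atp5c1, Atp5e, Cox5b and Ndufv1 among them. Which transcripts these report is less certain.

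Unsorted tissue mixes cell types, and in bulk samples fewer cells of a type and less RNA per cell cannot be told apart. All 7 fibroblast and all 6 endothelial markers fell from gland to tumor (list means 10.92 to 11.59 against 5.65 to 10.75, and 8.03 to 9.21 against 5.60 to 7.35), with no marker of either list at the floor in every array of either group. Of 8 luminal markers 4 rose and 1 fell, and all 5 proliferation genes tested rose (median 3.03, list means 5.32 to 8.29 against 7.91 to 10.35). Of 6 basal epithelial markers 3 fell, of 5 B and plasma cell markers 4 and of 6 macrophage markers 2. Of 4 T and NK cell markers 1 fell, as did 1 of 4 brown adipocyte markers, and 1 of 2 erythroid markers rose. Adipocyte markers had a list mean of 5.93 to 6.90 in the glands (median 6.35) and 5.33 to 7.58 in the tumors (median 5.68). Of 6 tested 1 rose and 1 fell, and Pparg was at the floor in every unsorted primary tumor. Skeletal muscle markers were at a list mean of 5.23 to 5.41 in the glands and 5.11 to 6.45 in the tumors. Of 10 markers 4 (Myh4, Tnnt3, Tnnc2 and Actn3) were at the floor in every gland, and of 7 tested 2 rose. The part of these cells in the members' rise was not tested.

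Genes that work beside the subunits were described in the same fit, where 29.4% of all genes rose and 21.5% fell. Of 15 tested genes of the tricarboxylic acid cycle 10 rose and none fell, among them Idh3a (1.15 ± 0.23), a subunit of isocitrate dehydrogenase, and Dlat (1.14 ± 0.20), a subunit of pyruvate dehydrogenase. Of 11 genes of mitochondrial membranes and chaperones 10 rose, led by the outer membrane channel Vdac2 (1.25 ± 0.14), and Immt, a cristae organiser, fell (-0.85 ± 0.25). Of 26 electron carriers and further assembly genes 11 rose and 2 fell: Uqcc2, a complex III assembly factor, rose by 1.55 ± 0.19, Atpaf1, an ATP synthase assembly factor, by 1.42 ± 0.24, and cytochrome c1 (Cyc1) by 0.95 ± 0.18, while Cox15, needed for heme A, had -1.25 ± 0.18 and Ttc19 -0.53 ± 0.15. Of the 14 regulators of mitochondrial biogenesis 5 were higher and 4 lower, near the shares of all genes. Ppargc1a, a coactivator of respiratory genes, rose by 0.92 ± 0.22, Tfam, which packages mitochondrial DNA, by 0.62 ± 0.14, Yy1 by 0.51 ± 0.13, Polg by 0.48 ± 0.17 and Tfb1m by 0.33 ± 0.14. Myc (-0.92 ± 0.23), Polrmt (-0.87 ± 0.19), Nrf1 (-0.66 ± 0.17) and Gabpa (-0.47 ± 0.19) were lower. The one mitochondrially encoded subunit with a probe set of its own, ND5, did not pass (0.08 ± 0.17, adjusted p = 0.721). Of 5 uncoupling and brown fat genes none rose and Elovl3 and Ucp3 fell. Without glands 4 and 5, 16.7% of all genes were higher and 17.5% lower. The tricarboxylic acid cycle genes then had 5 higher, and the membrane and chaperone genes 5 higher and 1 lower. The carriers and assembly genes had 6 higher and 2 lower, the regulators 2 higher and 5 lower, and the uncoupling genes none. Of the genes named, Yy1 (0.39, adjusted p = 0.0514), Polg (0.34), Tfb1m (0.26), Elovl3 (-0.40) and Ucp3 (-0.34) were then not called, while Ppargc1a (0.79 ± 0.27), Tfam (0.53 ± 0.17), Nrf1 (-0.52 ± 0.21) and Vdac2 (1.01 ± 0.16) were.

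The second comparison, sorted against unsorted primary tumors, asked how lacZ+ tumor cells differ from whole tumors. Of the 93 members 36 were lower and 1 was higher in the sorted cells, where 15.7% and 9.62% of all genes were. The median difference was -0.27, against -0.05 over all genes. Lower were 13 complex I, 2 complex II, 6 complex III, 3 complex IV and 8 ATP synthase genes and 4 assembly factors. No mouse gave both a sorted and an unsorted primary tumor, so the sort was compared only between mice and not within a mouse. This comparison shares the unsorted primary tumors with the first, so the lists of called members are not independent.

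Atp5c1 showed the largest fall in the sort. It lay between 8.88 and 10.66 in the 8 sorted tumors (median 10.24) and between 10.17 and 11.47 in the 22 unsorted ones (median 10.88), a difference of -0.84 ± 0.17 (1.79-fold, limma adjusted p = 0.000238). Cox8a had 10.26 to 11.12 (median 10.93) against 11.24 to 12.26 (median 11.53), without overlap, and a difference of -0.77 ± 0.13 (1.7-fold, limma adjusted p = 2.53e-05). Uqcrc1 had 9.37 to 9.86 (median 9.62) against 9.71 to 10.96 (median 10.35) and a difference of -0.75 ± 0.14. In complex I the largest falls were those of Ndufs7 (-0.78 ± 0.17), Ndufs3 (-0.72 ± 0.15), a core subunit, and Ndufs5 (-0.70 ± 0.15), an accessory subunit, and in complex II that of Sdhd (-0.51 ± 0.11). Ndufs1 (-0.61 ± 0.15), Ndufv1 (-0.34 ± 0.11), Uqcr11 (-0.60 ± 0.17), Uqcrq (-0.62 ± 0.16), Uqcrfs1 (-0.44 ± 0.13), Cox4i1 (-0.42 ± 0.13), Cox5b (-0.42 ± 0.14), Atp5e (-0.70 ± 0.16), Atp5a1 (-0.68 ± 0.16), Atp5b (-0.55 ± 0.15) and Sdha (-0.38 ± 0.13) also fell, and so did the assembly factors Ndufaf1 (-0.62 ± 0.19), Sdhaf1 (-0.53 ± 0.18) and Ndufaf3 (-0.50 ± 0.13).

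Complex IV differed in part. Cox4i2 was higher in the sorted tumors (6.84 to 7.85, median 7.35, against 6.49 to 7.49, median 7.09; 0.37 ± 0.12, adjusted p = 0.0209). Cox5a (0.14, adjusted p = 0.452), Cox6a1 (0.06, adjusted p = 0.782) and Cox6b1 (0.12, adjusted p = 0.513) were not called, in contrast to Cox8a, Cox4i1 and Cox5b. The differences between subunits were not tested, and this contrast depended in part on the probe set. By group means, Cox5a had 0.16 in the chosen probe set and 0.14 and -0.34 in the others. Cox6a1 had 0.09 in the chosen and -0.15 in the other probe set, and Cox6b1 0.17 and -0.04. Cox5b had -0.35, with -0.56, -0.40 and -0.15 in its further probe sets above the median probe set. Cox4i1 had -0.37, and Cox8a -0.71 in the chosen and in a further bright probe set. The Cox4i2 difference was not called without the mouse as a block, with spike-in intensity added as a covariate, or with the 2 groups fitted alone, where Ndufa13 was called higher instead (0.23, adjusted p = 0.037). Among further probe sets of the members that fell, 28 of 30 had the sign of the chosen one, the exceptions being 1 of Ndufs7 and 1 of Atp5a1. ND5, from mitochondrial DNA, rose by 0.44 ± 0.15 (adjusted p = 0.0256) in the sorted tumors. The further lists held 0 genes that rose and several that fell, where 15.7% of all genes fell. These were 6 of 26 electron carriers and assembly genes and 5 of 15 genes of the tricarboxylic acid cycle. Also lower were 3 of 11 mitochondrial membrane genes (Vdac1, Vdac2 and Vdac3) and 4 of 14 regulators, with Tfam at -0.60 ± 0.12.

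Other measures moved with the sort. All 5 proliferation genes fell (median -1.32, list means 7.94 to 8.89 in the sorted and 7.91 to 10.35 in the unsorted tumors), 4 of 8 luminal markers fell and 1 rose, and 4 of 6 macrophage and 2 of 7 fibroblast markers rose (macrophage list means 7.66 to 10.87 against 7.34 to 9.41, with none at the floor throughout). The 3'/5' ratio of the Gapdh control probe sets (log2) was -0.36 to 0.11 in the sorted and -0.06 to 0.59 in the unsorted tumors. The part of these in the members' differences was not tested. The 4 sorted tumors with a Gapdh ratio under -0.1, the same as those inside the stretch of 15 arrays, gave 34 members lower and 2 higher (median -0.31). Of all genes 16.2% were then lower and 13.7% higher. The 4 sorted tumors above this limit gave 16 members lower and 0 higher (median -0.28), where 7.49% of all genes were lower and 4.78% higher. Of the 36, 32 were also called with the first set and 12 with the second, in which Cox4i2 was at 0.02, Cox8a at -0.60 ± 0.17, Uqcrc1 at -0.80 ± 0.18 and Atp5c1 at -0.46 ± 0.22 (adjusted p = 0.172).

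Sorted primary tumors were next compared with sorted hyperplasia, the earlier stage, also sorted as lacZ+ cells. The groups had 0 mice in common, so the stages were compared only between mice and not within a mouse. The mean log2 intensity of the spike-in controls was 12.53, 11.35, 9.29 and 8.95 in hyperplasia replicates 1, 2, 3 and 4. It was 8.25 to 10.19 in the sorted primary tumors. Of the 93 members 1 was called higher and 0 lower, where 1.29% and 2.5% of all genes were. At an unadjusted p under 0.05 in limma, 5 were higher and 2 lower, where 17.6% of all genes passed in either direction. The median difference was -0.01, against 0.01 over all genes, and the differences ran from -0.50 (Sdhb, adjusted p = 0.333) to 0.97, with a median SE of 0.20. The gene called was Ndufaf8, a complex I assembly factor. It had 8.83, 7.23, 9.97 and 8.92 in the hyperplasia arrays and 8.93 to 10.24 in the tumors (median 9.56), a difference of 0.97 ± 0.24 (limma adjusted p = 0.0137). Replicate 2 lay far below the other 3, and without it the difference was 0.47 (adjusted p = 0.295). Without replicate 1 it was 1.00 (adjusted p = 0.0538). Without replicate 4, 2 members were called lower, where 3.91% of all genes were. The largest positive differences of subunits, none of which passed, were those of Ndufa4l2 (0.61, adjusted p = 0.19), Uqcrq (0.49, adjusted p = 0.249) and Ndufab1 (0.45, adjusted p = 0.224). Markers of other cell types moved with this comparison. All 5 B and plasma cell markers tested were lower in the tumors (median -1.81, list means 6.52 to 9.84 in the hyperplasia and 5.47 to 7.18 in the tumors), with none at the floor throughout either group. Of 7 fibroblast markers 3 were lower (list means 10.49 to 11.22 against 7.07 to 11.41), of 6 endothelial markers 3 (6.22 to 7.58 against 5.35 to 6.70), of 4 T and NK cell markers 2 and of 6 macrophage markers 1 (10.26 to 11.15 against 7.66 to 10.87). Their part in the members' differences was not tested.

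Transplantation was compared within sorted and within unsorted tumors. In sorted tumors none of the 93 members passed in limma, and 0 had an unadjusted p under 0.05, where the share of all genes called was 0% in either direction and 4% of all genes had an unadjusted p under 0.05. The differences ran from -0.25 (Ndufv3) to 0.28 (Ndufa9), each with an adjusted p of 1, with a median of 0.09 and a median SE of 0.16. In unsorted tumors 0 members passed in limma in either direction, where 0.752% of all genes were higher and 0.191% lower. At an unadjusted p under 0.05 in limma, 2 members were higher and 3 lower, where 10.3% of all genes passed in either direction. Ndufb6, an accessory complex I subunit, had 9.56, 9.41, 9.55 and 9.52 in the transplants and 9.45 to 10.65 in the primary tumors, so the transplants lay at the low end of the primary range. Its difference of -0.49 ± 0.19 (adjusted p = 0.251) had the lowest adjusted p of the members. The next largest were those of Ndufa3 (-0.42, adjusted p = 0.338), Ndufaf2 (0.42, adjusted p = 0.604), Atp5a1 (0.40, adjusted p = 0.527) and Cox6b1 (-0.37, adjusted p = 0.358), and the median SE was 0.19. The difference between the sorted and unsorted transplant effects was called for 0 members in limma, against 0.0858% of all genes. An unadjusted p under 0.05 was found for 3 members and for 7.87% of all genes. Ndufb6 had the largest at 0.63 ± 0.25 (adjusted p = 0.413).

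The 4 unsorted transplanted tumors come from 2 mice of origin, and some members differ between these. Ndufs3 was at 10.42 and 10.14 in the transplants of mouse CR90 and at 8.70 and 8.58 in those of mouse CR115, whose own primary tumor had 9.64. Ndufaf1 was at 7.73 and 7.79 against 5.86 and 6.13, with 7.40 in the CR115 primary tumor. With 2 tumors from each mouse these are values only, chosen after they were seen.

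Among the unsorted primary tumors the members varied little. The SD of a member over the 22 tumors had a median of 0.26, from 0.15 (Ndufa13) to 0.50 (Cox7a1), against 0.31 over all tested genes. For genes with a mean above 9 it was 0.26 over 68 members and 0.33 over 1737 genes. The 4 tumors of mouse C117 had member medians of 9.91 to 10.05, and a tumor of mouse B459 had the lowest of all 22 at 9.66. The highest, 10.32, was the tumor of mouse E93.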

How the data were processed

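Total RNA was labelled as biotin cRNA and hybridised to 1-colour Affymetrix arrays, per the labels' protocols. The authors deposited 1 table of linear intensity values, a value for each of 45101 probe sets on each array. The software and scaling behind these intensities are not given in the sources used here. Of the probe sets, 34944 carried 1 gene symbol, 932 several and 9160 none. The 64 control probe sets were set aside, and 1 probe set with 2 extreme values was left out. Intensities below 32 (37.4%) were set to 32 before log2, and the 2 arrays of tumor CR115 were averaged. Genes had to exceed the 40th percentile of an array in 4 or more arrays to be tested.

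All 6 groups were fitted in 1 limma model (3.58.1, R 4.3.3; lmFit, eBayes) with the mouse of origin as a random block (correlation 0.358) and Benjamini-Hochberg adjustment over 15150 genes. The script was tested on simulated data. Named genes were up to 3 largest called rises and falls of each complex in each comparison, plus fixed core subunits and isoform pairs. Genes named for other reasons are Ndufa7 probe sets, Ndufs3 and Ndufaf1 in transplants, and those not called, chosen after their values were seen. Members, lists and tests were chosen with earlier results of these data known. Alternatives were other floors, normalizations, filters, probe set rules, covariates and blocks, and leaving out replicates. Leaving out glands 4 and 5 together, and splitting sorted arrays at a Gapdh ratio of -0.1, were added after seeing the data.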

Additional observations from a re-analysis of the deposited data

Results flagged for a closer look

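In 141 groups of 4 to 10 samples the highest or lowest sample was compared with its neighbours by Dixon's test, and 11 stood apart, where chance gives about 1 in 20 groups (7.05). In the wild-type gland, Cox6a2 of gland 4 was the highest at 7.81 (next 6.77). In the sorted primary tumors replicate 1 was the lowest for the complex I median at 9.0 (next 9.48), the complex IV median at 9.75 (next 10.41) and Atp5a1 at 10.51 (next 11.05). In the sorted hyperplasia, Atp5a1 was highest in replicate 3 at 11.44 (next 11.20), and replicate 1 was highest for Cox6b2 at 6.08 (next 5.04) and Cox8b at 5.85 (next 5.00). In the sorted transplanted tumors the complex II median of replicate 3 was 9.91 (next 9.42), Cox8b of replicate 4 was 6.64 (next 5.14) and Cox6b2 of replicate 5 was 5.18 (next 5.00). In the unsorted transplanted tumors Cox8b of replicate 3 was 5.13 (next 5.00). The Cox6b2 and Cox8b values set 1 array against arrays at the floor.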

How the results depend on the processing

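The count of members higher in tumors than in glands lay between 64 (quantile normalization) and 77 (mean of a gene's probe sets) under the alternatives fixed with the design. It lay between 65 and 73 with 1 gland left out, and at 52 without glands 4 and 5 (chosen after seeing the data). Of all genes 29.7%, 28.4%, 24.4% to 29.1% and 16.7% were higher in these settings. Of the 73, 49 were called under all 15 other settings. The 4 lower members became 2 with median centring, with the mean of probe sets and without glands 4 and 5, and 2 to 4 with 1 gland left out. Of all genes 18.7%, 21.9%, 17.5% and 19.6% to 20.2% were lower there. The 36 members lower in sorted tumors were 30 with the spike-in covariate and 42 with median centring (13.7% and 18.3% of all genes). They were 16 with only the sorted arrays above the Gapdh limit (7.49% of all genes), and 9 were called under all 11 other settings. The 1 member higher in sorted tumors was Cox4i2, or Ndufa13 with the compared groups alone (8.96% of all genes higher). The count became 0 without the mouse block (9.05%), with the spike-in covariate (8.28%) and with the arrays above that limit (4.78%). It became 2 with those below it (13.7%). The 1 member higher against hyperplasia became 0 with the spike-in covariate (0.238% of all genes higher) and with the compared groups alone (0.00665%). It also became 0 without hyperplasia replicates 1 and 2 (0.0462%) and above the Gapdh limit (0.0396%). The count was 2 below that limit (2.48%), and 0 to 1 with 1 array left out (0.185% to 2.37%). The lower count of 0 became 0 to 2, with 2 without replicate 4, where 3.91% of all genes were lower. In unsorted transplants 1 member was lower without the mouse block, where 1.78% of all genes were. Leaving out arrays shrinks a group. For the other settings the cause was not tested. Over 55 called results of named genes, 682 of 738 values kept direction and call, 56 lost the call and 0 changed sign. No paired analysis was possible because the labels give no replicate numbers shared between groups. The mice that gave both primary and transplanted tumors (2 among sorted and 1 among unsorted arrays) entered as the random block, and at most a single tumor in each setting can be matched before and after transplantation.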
